A study of Rattus norvegicus with 6 samples.

Results

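The genes described here carry or control gluconeogenesis, and they were followed in the livers of 3 control rats and 3 rats on total parenteral nutrition (TPN, feeding by infusion into a vein). They were taken by symbol from the deposited expression table: Pck1, Pck2, G6pc, Slc37a4, Fbp1, Pc, Ppargc1a, Creb3l3, Gpt and Sds. All 10 had a row among the 25926 features of the table. All 10 also reached the minimum set for testing, a mean of 1 FPKM over the 6 rats (fragments per kilobase of transcript, scaled to the mapped fragments of the library), as did 11362 features in all. The rats were Sprague-Dawley and 4 weeks old by their labels. Controls were given 0.9% saline and have normal as disease state. TPN rats were infused for 7 days and have PNALD, parenteral nutrition-associated liver disease, as disease state. Sex, feeding state, hour of sampling and the duration of saline are not given in the labels. Alb, the gene of serum albumin and a defining gene of hepatocytes, was at 47966, 32506 and 48388 FPKM in control 1, 2 and 3. It was at 12828, 39337 and 30697 FPKM in TPN 1, 2 and 3, so TPN 1 was far below the other rats.

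Gluconeogenesis makes glucose from lactate, alanine, glycerol and other precursors, and liver is its main site in fasting. Pyruvate is carboxylated to oxaloacetate, turned into phosphoenolpyruvate and carried back up the shared glycolytic steps to fructose 1,6-bisphosphate. A pair of phosphatases then yields free glucose, the last one inside the endoplasmic reticulum. Glucagon and glucocorticoids raise transcription of several of these genes, partly through cAMP response elements and the coactivator PGC-1alpha, while insulin lowers it by keeping FOXO factors out of the nucleus.

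The stretches below belong to the 4 genes whose values did not overlap between the groups. They are the 250 bases before the annotated start of each gene, 5′ to 3′ on the strand of the gene, from RefSeq on build GRCr8, which is not the Rnor_6.0 named for the expression values. Capitals mark matches, on either strand, to the motifs searched. These were TGACGTCA (the cAMP response element), CGTCA (its half-site, which the full element holds on both strands), TGATGNAA (the C/EBP-ATF element, N being any base) and GTAAACA (a forkhead site).
Pck1, chr3:182348322-182348571, plus strand: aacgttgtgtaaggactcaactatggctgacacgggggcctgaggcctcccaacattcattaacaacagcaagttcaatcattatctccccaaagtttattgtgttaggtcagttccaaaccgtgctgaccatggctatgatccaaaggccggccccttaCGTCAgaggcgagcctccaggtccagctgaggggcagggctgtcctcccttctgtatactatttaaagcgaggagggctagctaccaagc
Pck2, chr15:32997603-32997852, plus strand: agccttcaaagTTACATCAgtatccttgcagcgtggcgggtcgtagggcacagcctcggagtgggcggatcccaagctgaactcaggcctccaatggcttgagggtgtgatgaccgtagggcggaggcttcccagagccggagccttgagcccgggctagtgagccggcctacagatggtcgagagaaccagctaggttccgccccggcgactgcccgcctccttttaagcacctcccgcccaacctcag
Ppargc1a, chr14:63634058-63634307, plus strand: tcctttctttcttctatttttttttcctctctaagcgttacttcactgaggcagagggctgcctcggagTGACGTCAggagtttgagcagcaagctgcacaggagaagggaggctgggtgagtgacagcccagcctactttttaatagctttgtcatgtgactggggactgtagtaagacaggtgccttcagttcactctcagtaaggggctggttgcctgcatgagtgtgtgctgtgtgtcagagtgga
Creb3l3, chr7:9273070-9273319, plus strand: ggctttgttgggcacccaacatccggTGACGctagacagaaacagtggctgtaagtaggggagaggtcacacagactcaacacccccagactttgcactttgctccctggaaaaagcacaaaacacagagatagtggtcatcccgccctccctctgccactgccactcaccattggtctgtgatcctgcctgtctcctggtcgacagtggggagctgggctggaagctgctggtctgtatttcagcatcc

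The Pck1 window held 1 half-site, 90 to 86 bases before the start, and no exact match to the full element. The bases printed just before that half-site are tta, where the full element has TGA. The Ppargc1a window held the full element once, 181 to 174 bases before the start, a match present in 1.59% of the 33469 RefSeq windows of this length. Half-sites were present in 18.2% of all windows, and the Creb3l3 window held 1 on the other strand, 224 to 220 bases before the start. The Pck2 window held the C/EBP-ATF element once on the other strand, printed as TTACATCA, 239 to 232 bases before the start. The same element lay in the G6pc window (under the name G6pc1), there as TTGCATCA, 150 to 143 bases before the start, and in 3.4% of all windows. GTAAACA, present in 3.21% of all windows, was in none of the 8 windows found for 7 of the 10 genes. Pc, Gpt and Sds had no entry in the table of windows. Only exact matches to the motifs were searched, so variant sites, forkhead ones among them, were not looked for. A match describes letters and is not evidence of binding, and the lack of one is not evidence against it.

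Pck1, Pck2 and Ppargc1a were higher in each TPN rat than in any control, Creb3l3 was lower in each TPN rat than in any control, and the other 6 genes overlapped. That makes 3 higher and 1 lower of 10, where 8.02% of all tested features were higher and 9.09% lower without overlap (17.1% in either direction). None of the 10 passed limma's test, fitted to all features with a Benjamini-Hochberg adjusted p under 0.05 as the threshold. The share that passed was 0.246% over all tested features (0.0264% higher and 0.22% lower), so 0 of 10 is near the background. At an unadjusted p under 0.05 limma gave 3 members, all higher, where it gave 11.4% of all features (4.44% higher and 7.01% lower). Of the 10 genes 5 had a positive and 5 a negative log2 fold change, and their median was -0.11. Over all features 50.9% were positive and the median was 0.0065. In bulk liver, fewer cells that express a gene and less RNA per cell cannot be told apart.

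**Figure D1:**
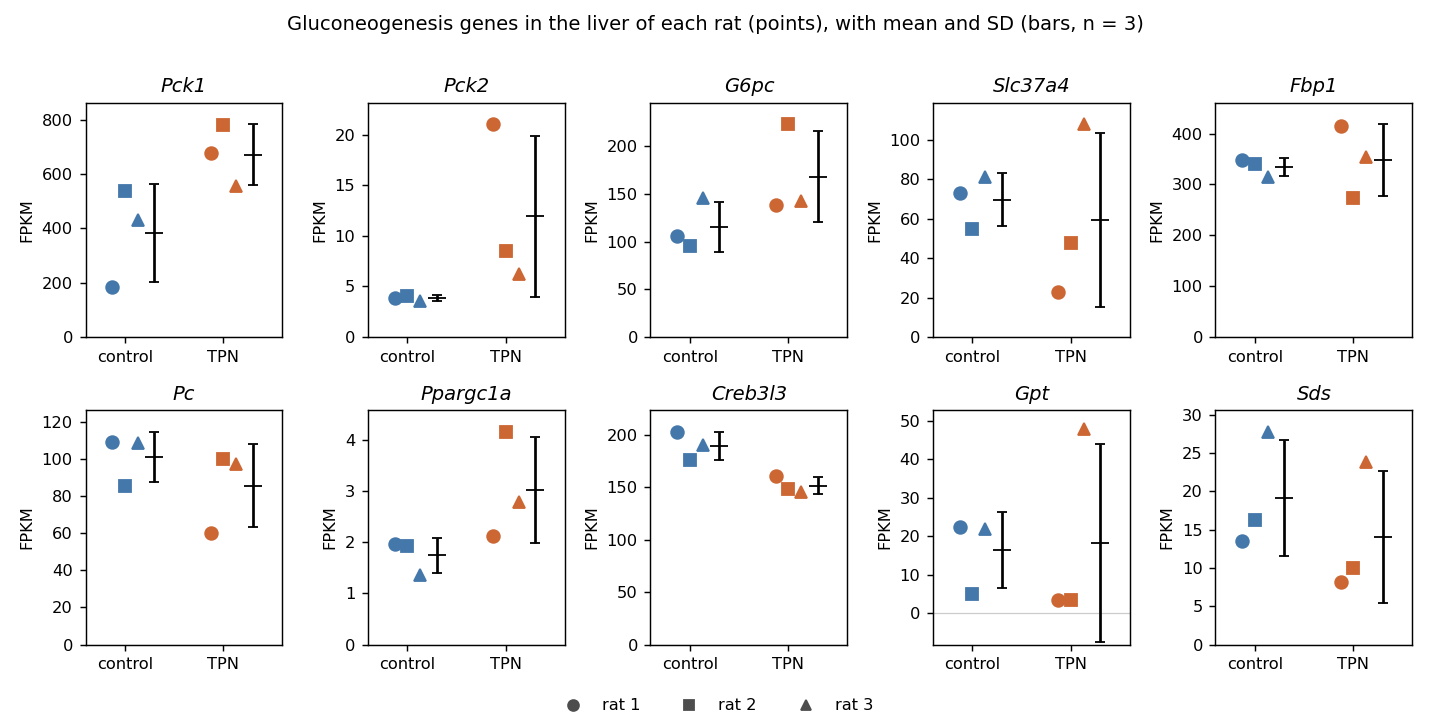
FPKM (linear axis) of each gene in each rat, with circles, squares and triangles for rats 1, 2 and 3 of the control (blue) and TPN (orange) groups, and the mean with its SD (n = 3) as black bars. The 3 TPN points lie above all control points for Pck1, Pck2 and Ppargc1a and below them for Creb3l3, while Slc37a4, Gpt and Sds are far apart within the TPN group.

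Pck1 encodes the cytosolic phosphoenolpyruvate carboxykinase, which turns oxaloacetate into phosphoenolpyruvate. Its level was 185, 537 and 431 FPKM in control 1, 2 and 3 and 677, 782 and 557 FPKM in TPN 1, 2 and 3. The groups did not overlap, but control 2 lay close under TPN 3, and control 1 was far below the other 5 rats. The ratio of the means was 1.75, with an SD of 180.2 FPKM among the controls and 112 FPKM among the TPN rats (n = 3 each). On the log2(FPKM + 1) scale, used for all differences below, TPN minus control was 0.92 (SE 0.40, 95% interval 0.0063 to 1.84, limma adjusted p = 0.434). That difference was 0.47 without control 1. After median-ratio scaling or quantile normalisation the Pck1 values of the groups overlapped.

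Pck2 encodes the mitochondrial form of the enzyme, which in other cells is a known target of the stress-responsive factor ATF4. Its level was 3.87, 4.09 and 3.55 FPKM in the controls and 21.1, 8.47 and 6.27 FPKM in TPN 1, 2 and 3. The controls lay within a 1.15-fold range, all TPN rats were above them, and TPN 1 was far above the other TPN rats. The ratio of the means was 3.11, with SDs of 0.27 and 7.98 FPKM (n = 3 each). The log2 difference was 1.25 (SE 0.38, 95% interval 0.35 to 2.15, limma adjusted p = 0.311), and 0.78 without TPN 1. Pck2 made up 2.05%, 0.756% and 0.817% of the summed FPKM of both forms in the controls and 3.02%, 1.07% and 1.11% in the TPN rats, so Pck1 was the major form in each liver. The log2 ratio of Pck1 to Pck2 was 6.18 ± 0.81 in the controls and 5.86 ± 0.80 in the TPN rats (SD, n = 3 each, exact permutation p = 0.5, 2-sided), a difference smaller than either SD. In the RefSeq table Pck2 overlaps LOC120096988, and reads of such a pair cannot be told apart without strand.

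G6pc encodes the catalytic subunit of glucose-6-phosphatase, which releases free glucose, and Slc37a4 the carrier that brings glucose 6-phosphate to it. G6pc was at 106, 95.7 and 145 FPKM in the controls and 138, 223 and 143 FPKM in the TPN rats. Control 1 and 2 were under all TPN rats, and control 3 was above TPN 1 and 3. The log2 difference of G6pc was 0.52 (SE 0.26, 95% interval -0.085 to 1.13, limma adjusted p = 0.5), and 0.30 without TPN 2. Slc37a4 was at 73.1, 54.99 and 80.95 FPKM in the controls and 22.6, 47.5 and 108 FPKM in TPN 1, 2 and 3. TPN 1 and 2 were below every control and TPN 3 above every control, a 4.77-fold range within the group. The log2 difference of Slc37a4 was -0.48 (SE 0.52, 95% interval -1.71 to 0.75, limma adjusted p = 0.784). It was 0.059 without TPN 1 and -1.04 without TPN 3. The log2 ratio of G6pc to Slc37a4 was 0.53, 0.79 and 0.84 in the controls and 2.56, 2.21 and 0.40 in the TPN rats. TPN 1 and 2 were above all controls in this ratio and TPN 3 was below them all (exact permutation p = 0.4, 2-sided).

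Fbp1 encodes the fructose-1,6-bisphosphatase of liver, which opposes phosphofructokinase. Its level was 349, 341 and 314 FPKM in the controls and 415, 274 and 354 FPKM in the TPN rats. The control values lay inside the TPN range, and the log2 difference was 0.037 (SE 0.22, 95% interval -0.48 to 0.55, limma adjusted p = 0.973), with values from -0.10 to 0.20 when single rats were left out. Pc encodes pyruvate carboxylase, which feeds pyruvate into the pathway as oxaloacetate. It was at 109, 85.8 and 109 FPKM in the controls and 60.2, 100.2 and 97.2 FPKM in the TPN rats, with TPN 1 alone under all controls. The log2 difference of Pc was -0.26 (SE 0.24, 95% interval -0.83 to 0.30, limma adjusted p = 0.74), and -0.03 without TPN 1. Pc overlaps Lrfn4 in the RefSeq table.

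Ppargc1a encodes PGC-1alpha, the coactivator named above. It was at 1.96, 1.92 and 1.35 FPKM in the controls and 2.12, 4.16 and 2.79 FPKM in the TPN rats. All TPN values were higher, that of TPN 1 by little. The ratio of the means was 1.73 and the log2 difference 0.53 (SE 0.21, 95% interval 0.042 to 1.02, limma adjusted p = 0.399), a scale that understates the change of so low a gene. It was 0.33 without TPN 2. Ppargc1a overlaps a pseudogene, Rpl36-ps6, in the RefSeq table.

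Creb3l3 encodes CREBH, a liver transcription factor that is held in the endoplasmic reticulum membrane until it is cleaved. Its level was 203, 176 and 189.9 FPKM in the controls and 161, 149 and 145 FPKM in the TPN rats. All TPN values were below all controls, and both groups were tight, with coefficients of variation of 7.1% and 5.32%. The control mean was 1.25 times the TPN mean, and the log2 difference was -0.32 (SE 0.18, 95% interval -0.73 to 0.092, limma adjusted p = 0.543). That SE also draws on the spread of other features, so it is not the scatter of Creb3l3 alone. After quantile normalisation the Creb3l3 values of the groups overlapped.

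**Figure D2:**
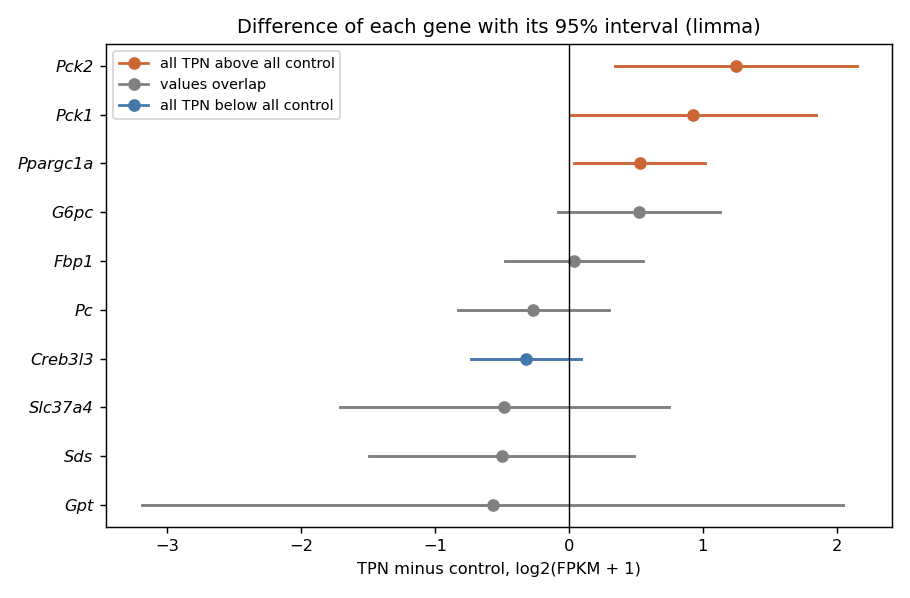
TPN minus control on the log2(FPKM + 1) scale for each gene (points), with the 95% interval of limma's fit over 6 rats (lines), coloured by whether the values of the groups overlap. The intervals of Pck2, Pck1 and Ppargc1a lie above 0 before adjustment over all features, and that of Gpt is the widest, from -3.19 to 2.05.

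Gpt and Sds prepare amino acids for the pathway. Gpt encodes the cytosolic alanine aminotransferase, which yields pyruvate from alanine, and Sds the serine dehydratase, which yields pyruvate from serine. Gpt was at 22.3, 5.06 and 21.9 FPKM in the controls and 3.54, 3.47 and 47.8 FPKM in TPN 1, 2 and 3. TPN 1 and 2 were under all controls and TPN 3 over them all, a 13.8-fold range in the TPN group beside a 4.405-fold range among the controls. The log2 difference of Gpt was -0.57 (SE 1.07, 95% interval -3.19 to 2.05, limma adjusted p = 0.894), although its mean FPKM was higher in TPN (18.3 against 16.4). The difference of Gpt was -1.72 without TPN 3, 0.0086 without TPN 2 and -0.0025 without TPN 1. It was -0.24, -1.21 and -0.25 without control 1, 2 and 3. Sds was at 13.5, 16.3 and 27.8 FPKM in the controls and 8.21, 10.05 and 23.9 FPKM in the TPN rats. Again TPN 1 and 2 were under every control, and TPN 3 lay between control 2 and control 3. The log2 difference of Sds was -0.50 (SE 0.42, 95% interval -1.49 to 0.49, limma adjusted p = 0.707), and it was -0.94 without TPN 3, -0.22 without TPN 1 and -0.22 without control 3.

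Slc37a4, Gpt and Sds thus had TPN 3 highest among the TPN rats and TPN 1 and 2 below all controls. Without TPN 3, 4 members were lower in TPN without overlap, these 3 and Creb3l3, in place of 1. Over all features the share lower without overlap was 19.8% with TPN 3 left out, against 9.09% with all 6 rats. The 10 genes did not all follow that rat: TPN 1 had the highest TPN value of 3 genes, TPN 2 of 4 and TPN 3 of 3. Summed over the 10 genes the controls held 1067, 1317 and 1325 FPKM and the TPN rats 1509, 1601 and 1485 FPKM. With Pck1 left out the sums were 881, 781 and 894 FPKM and 832, 819.7 and 928 FPKM, so the groups were apart with Pck1 and overlapped without it.

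**Figure D3:**
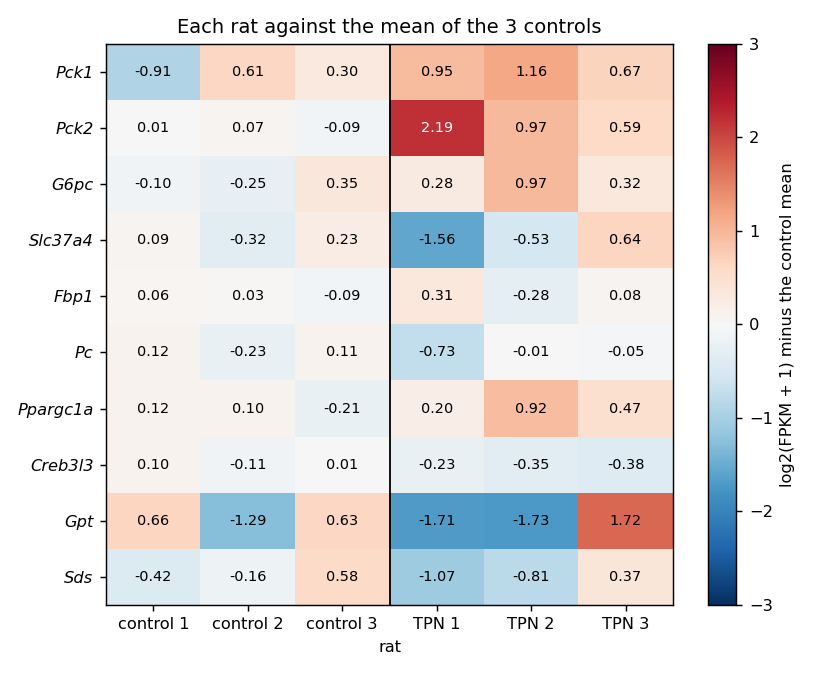
Each rat's log2(FPKM + 1) minus the mean of the 3 controls, for the 10 genes (rows) in the 6 rats (columns), red above and blue below that mean. TPN 3 is positive and TPN 1 and 2 are negative in Slc37a4, Gpt and Sds, and all 3 TPN rats are positive in Pck1, Pck2, G6pc and Ppargc1a.

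In order of mean level the controls ran Pck1, Fbp1, Creb3l3, G6pc, Pc, Slc37a4, Sds, Gpt, Pck2 and Ppargc1a. Neighbours whose ranges overlapped were Pck1 with Fbp1, G6pc with Pc, and Sds with Gpt. In the TPN rats G6pc stood before Creb3l3 and Gpt before Sds. There the ranges of G6pc and Creb3l3 overlapped, as did those of each next pair from Pc through Slc37a4, Gpt and Sds to Pck2, while Pck1 was apart from Fbp1. FPKM is scaled to transcript length, which is what allows levels of different genes to be set side by side.

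Other measures moved with these rats. The summed FPKM of 10 acute-phase genes, made by liver in inflammation, was 18431, 50585 and 18186 in the controls and 99799.7, 41169 and 35779 in TPN 1, 2 and 3. Lcn2, one of them, was at 3.68, 112 and 7.29 FPKM in the controls, at 9127 FPKM in TPN 1 and at 172 and 77.2 FPKM in TPN 2 and 3. Control 2 was above TPN 3 in Lcn2, so the groups overlapped. The summed FPKM of 10 periportal hepatocyte genes, a list that holds Sds, was 2608, 1999 and 2556 in the controls and 1092, 1496 and 3026 in the TPN rats, and 7 of the 10 were highest in TPN 3 among the TPN rats. All 10 periportal genes had negative log2 fold changes (median -0.43), with 1 turning positive after quantile normalisation, and none passed limma's test (2 at an unadjusted p under 0.05). Of 10 pericentral genes, summed at 2079, 1309 and 2376 FPKM in the controls and 405, 923 and 2019 FPKM in the TPN rats, 9 were tested. All 9 were negative (median -0.65) and none passed limma's test (5 at an unadjusted p under 0.05). Over all tested features 7.01% were lower at an unadjusted p under 0.05 by limma. The part of the acute-phase and zonal genes in the members' values was not tested. Kidney also makes glucose, but 5 genes of kidney tubules summed to at most 1.001 FPKM in any rat, with Umod listed at 0 in 5 of them. Summed FPKM of 8 Kupffer cell genes ran from 368 to 537 in the controls and from 453 to 574 in the TPN rats, and that of 5 erythroid genes from 2124 to 2416 and from 230.2 to 577. Of these erythroid genes 4 fell past the threshold of limma's test, as did 0.22% of all tested features. Of 7 tested genes of hepatocyte proteins, a list that holds Alb, 4 were positive and 3 negative. The only one without overlap was Ttr, lower at 6789 ± 2267 FPKM against 2507 ± 842 FPKM (SD, n = 3 each, limma adjusted p = 0.242). Over all tested features 9.09% were lower without overlap.

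Markers of other liver cells, named here after their values were seen, stood apart between the groups in part, none of those named past the threshold of limma's test. Of the 8 Kupffer cell genes 5 were positive and 3 negative. By limma 3 were at an unadjusted p under 0.05, and these were also higher without overlap, as were 8.02% of all tested features. They were Marco at 67.9 ± 5.76 FPKM against 136 ± 37.2 FPKM (SD, n = 3 each), Cd68 and Cd163. Clec4f was among the negative ones, at 107 ± 25.9 FPKM against 86.9 ± 5.61 FPKM, with overlap. Of 6 cholangiocyte genes 2 were tested, Krt19 and Epcam, and both were lower without overlap. Of 6 tested stellate cell genes 4 were negative and 2 positive. Lower without overlap were 2, Lrat at 13.6 ± 2 FPKM against 4.596 ± 1.69 FPKM and Col3a1 at 109 ± 26.8 against 63.96 ± 11.7 FPKM. The positive ones, which overlapped, were Dcn at 5.34 ± 2.15 against 7.18 ± 0.948 FPKM and Hand2 at 1.98 ± 0.241 against 2.07 ± 0.277 FPKM. Over all tested features 9.09% were lower without overlap. None of 5 endothelial genes was without overlap. Their part in the members' values was not tested.

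A list drawn for the entry of substrates to the pathway also holds genes that do not bring one, such as the citrate carrier Slc25a1. Of its 21 tested genes 10 were positive and 11 negative. None passed limma's test (1 higher and 2 lower at an unadjusted p under 0.05). After quantile normalisation 14 were positive. Slc25a1, the mitochondrial citrate carrier, was at 75.8, 62.5 and 77.1 FPKM in the controls and 32.01, 50.7 and 41.4 FPKM in the TPN rats, lower without overlap (limma adjusted p = 0.229). Aqp9, the channel by which glycerol enters hepatocytes, was also lower without overlap, at 98.8 ± 16.9 FPKM against 69.2 ± 5.14 FPKM (SD, n = 3 each, limma adjusted p = 0.392). Gk, which phosphorylates that glycerol, was at 78.8 ± 16.7 FPKM in the controls against 76.99 ± 7.26 FPKM under TPN. Slc16a1, a carrier of lactate and pyruvate, was higher without overlap, at 39.7, 45.5 and 29.2 FPKM against 77.1, 48.4 and 49.7 FPKM (limma adjusted p = 0.43). Mpc1, a subunit of the mitochondrial pyruvate carrier, was at 149 ± 33.3 FPKM against 101 ± 36.6 FPKM. Among aminotransferases, Tat, which starts tyrosine breakdown, was at 76.6, 206 and 221 FPKM in the controls and 116, 320.01 and 553 FPKM in the TPN rats. Gpt2, the mitochondrial alanine aminotransferase, was at 49.1, 40.6 and 82.98 FPKM and 13.8, 45.9 and 68.1 FPKM in the same order, and Got1, the cytosolic aspartate aminotransferase, at 76.7, 64.6 and 78.1 FPKM and 74.1, 92.98 and 151 FPKM. TPN 3 was the highest of the 3 TPN rats in Tat, Gpt2 and Got1, as it was in Gpt and Sds.

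The 7 glycolytic enzymes that also run in reverse had log2 fold changes from -0.25 (Pgk1) to 0.24 (Eno1), and limma gave none past the threshold or at an unadjusted p under 0.05. Gpi was at 48.5 ± 6.25 FPKM in the controls and 42.1 ± 11.2 FPKM under TPN, and Pgam1 at 74.4 ± 6.84 and 81.9 ± 21.2 FPKM. The list of opposing glycolytic steps mixes enzymes and a glucose carrier, Slc2a2, with inhibitors of glucose and pyruvate use. Its counts are of RNA and do not measure glucose use. Of its 7 tested enzymes and carrier 6 were negative (median -0.35), and limma gave none past the threshold or at an unadjusted p under 0.05. Its 4 inhibitors, Gckr, Pdk1, Pdk2 and Pdk4, were all negative too (median -0.85). None was past limma's threshold and 2 were at an unadjusted p under 0.05, where 7.01% of all tested features were lower at that p. The counts of both parts of the list were the same under each of the 4 scalings. Gckr was at 105, 82.9 and 77.2 FPKM in the controls and 37.7, 64.9 and 35.6 FPKM in the TPN rats, lower without overlap (limma adjusted p = 0.241). Pklr, the liver pyruvate kinase, was at 51.5, 31.6 and 65.7 FPKM in the controls and 14.5, 39.05 and 59.2 FPKM in the TPN rats. Pfkfb1, which sets the level of fructose 2,6-bisphosphate, was at 28.8, 24.3 and 31.2 FPKM and 9.403, 31.9 and 33.3 FPKM in the same order. Pklr and Pfkfb1 were thus each lowest of all 6 rats in TPN 1. Pdk1, Pdk2 and Pdk4 encode kinases that inhibit pyruvate dehydrogenase. Pdk2 was at 54.3 ± 16.2 FPKM against 32.3 ± 10.6 FPKM (limma adjusted p = 0.417) and Pdk1 at 21.8 ± 3.09 against 17.6 ± 3.996 FPKM. Pdk4 was at 4.24 FPKM in TPN 3 and between 29.8 and 49.9 FPKM in the other 5 rats.

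**Figure D4:**
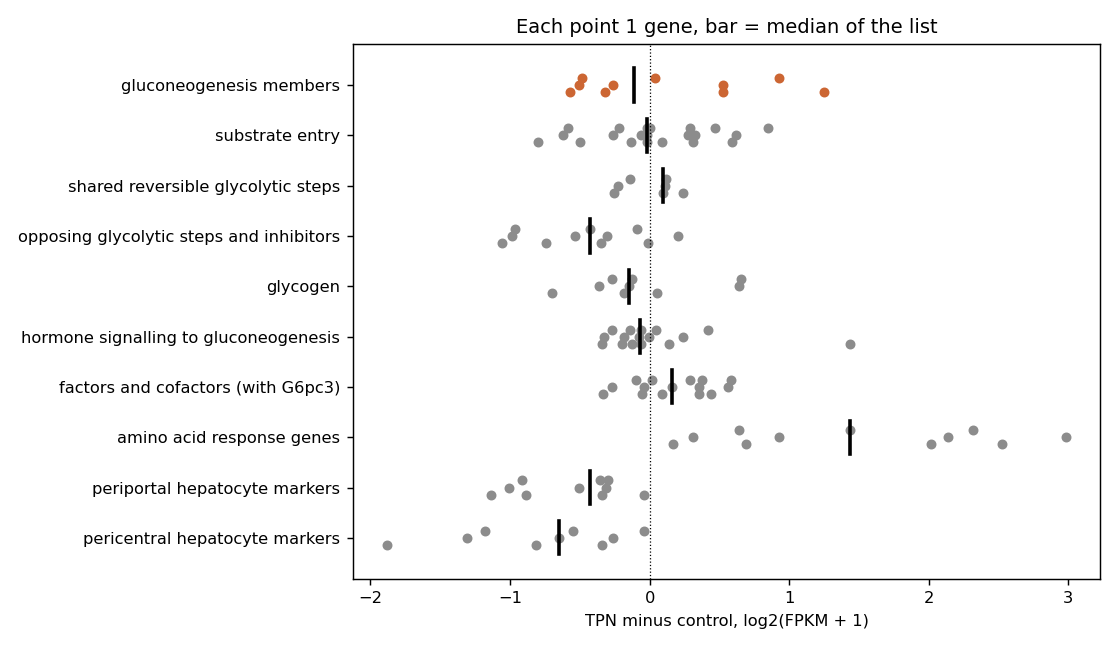
TPN minus control on the log2(FPKM + 1) scale for each tested gene (points) of the gluconeogenesis genes (orange) and of 9 lists around them (grey), with the median of each list as a black bar. The members lie on both sides of 0, 10 of 11 genes of the opposing steps and their inhibitors lie below it, and all 11 amino acid response genes lie above it.

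Genes that oppose or serve each other were also compared as log2 ratios within each liver. Of 8 ratios tested, 7 of which are reported here, none passed the exact permutation test, which with 3 rats against 3 cannot give a p under 0.1 (2-sided). Sds to Tat was the only one of the 8 without overlap, at -2.42, -3.58 and -2.95 in the controls and -3.67, -4.86 and -4.48 in the TPN rats. That is a difference of -1.35 (exact permutation p = 0.1, the smallest possible, and 0.533 after Benjamini-Hochberg adjustment over the 8). The enzyme of Pck1 makes phosphoenolpyruvate and that of Pklr uses it. Their ratio, Pck1 to Pklr, was at 1.83, 4.04 and 2.70 in the controls and 5.45, 4.29 and 3.21 in the TPN rats. Control 2 stood above TPN 3 in it, and the difference was 1.46 (exact permutation p = 0.2, adjusted 0.533). The ratio of Fbp1 to Pfkl, the liver phosphofructokinase, differed by -0.17, that of Pc to Pdha1, a subunit of pyruvate dehydrogenase, by 0.17, and that of Gpt to Gpt2 by 0.053. The exact permutation p of these ratios was 0.6, 0.2 and 1. Leaving out 1 rat moved 6 of the 7 ratio differences, all but that of Sds to Tat, by over 1.5 times. With a rat left out they ran from -0.33 (without control 3) to -0.014 (without control 1) for Fbp1 to Pfkl, from 0.066 (without control 1) to 0.29 (without control 2) for Pc to Pdha1, from -0.63 (without TPN 3) to 0.82 (without TPN 2) for Gpt to Gpt2 and from -0.79 (without control 1) to 0.13 (without TPN 1) for Pck1 to Pck2. They ran from 0.90 (without TPN 1) to 2.05 (without control 2) for Pck1 to Pklr, from 0.59 (without TPN 1) to 1.67 (without TPN 3) for G6pc to Slc37a4 and from -1.69 (without TPN 1) to -1.07 (without control 1) for Sds to Tat.

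**Figure D5:**
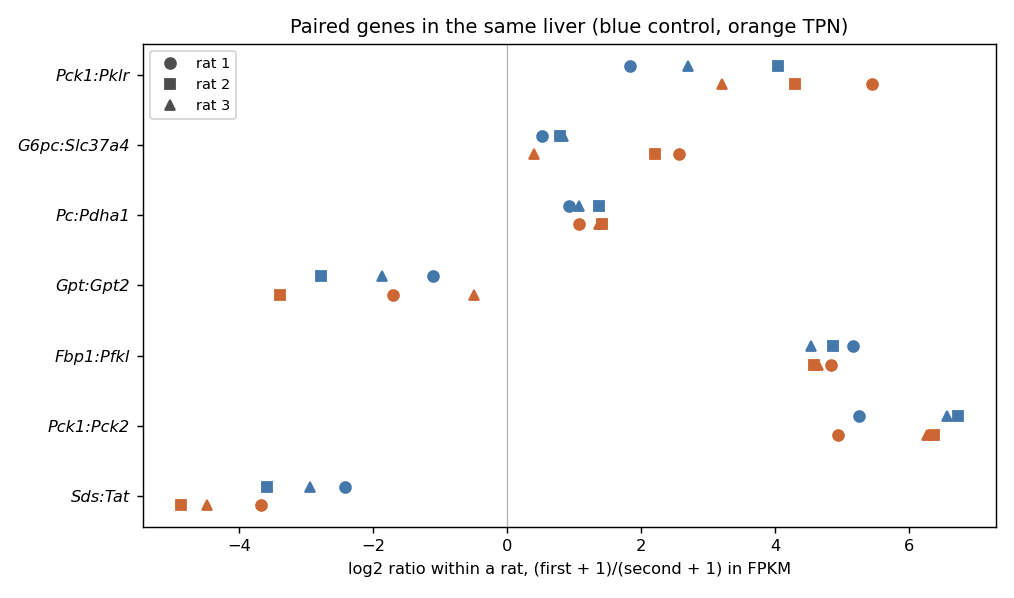
Log2 ratio of a pair of genes within each rat, (first + 1)/(second + 1) in FPKM, for 7 pairs (rows), with blue for control, orange for TPN and symbols for rats 1, 2 and 3. The groups are apart in Sds to Tat and overlap in the other 6, and in G6pc to Slc37a4 TPN 1 and 2 stand apart from TPN 3.

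Of 16 genes that carry glucagon and insulin signals to the pathway, 5 were positive and 11 negative, and none passed limma's test (1 at an unadjusted p under 0.05). Gcgr, the glucagon receptor, was at 46.1 ± 3.48 FPKM in the controls against 38.4 ± 7.39 FPKM under TPN (SD, n = 3 each), and Insr, the insulin receptor, at 11.3 ± 0.823 against 9.95 ± 2.13 FPKM. Prkaca, a catalytic subunit of protein kinase A, was lower without overlap, at 16.5, 11.2 and 12.1 FPKM against 9.84, 10.1 and 10.6 FPKM (limma adjusted p = 0.522). Irs1 and Irs2 relay the insulin signal. Irs1 was at 4.81 ± 0.617 FPKM against 3.71 ± 1.29 FPKM, and Irs2 at 3.79 ± 0.678 against 3.76 ± 1.62 FPKM. Trib3, a pseudokinase that binds AKT, was higher without overlap, at 1.92, 3.65 and 2.23 FPKM against 5.21, 21.7 and 5.17 FPKM (limma adjusted p = 0.383).

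Of 7 genes known to be repressed by insulin 4 were positive, the members Pck1, G6pc and Ppargc1a and also Foxo1. Igfbp1, Irs2 and Trib1 were negative. None passed limma's test, and the 2 at an unadjusted p under 0.05 were the members Pck1 and Ppargc1a. Igfbp1, a classic gene repressed by insulin, was at 120.04, 335 and 219.9 FPKM in the controls and 248, 273 and 89.8 FPKM in the TPN rats. Its TPN range overlapped that of the controls. Foxo1, a factor through which insulin acts on these genes, was at 4.34, 5.08 and 4.32 FPKM and 4.21, 8.798 and 7.396 FPKM in the same order. TPN 2 and 3 were above all controls in Foxo1 and TPN 1 was below them.

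Of 14 tested transcription factors and cofactors of the pathway 9 were positive (10 after quantile normalisation) and none passed limma's test (1 at an unadjusted p under 0.05). Atf4 was higher without overlap, at 61.4, 84.99 and 50.8 FPKM against 94.8, 103 and 89.3 FPKM (limma adjusted p = 0.395). Esrra, a nuclear receptor that works with PGC-1alpha, was also higher without overlap, at 9.11, 10.6 and 11.4 FPKM against 13.5, 12.2 and 15.5 FPKM (limma adjusted p = 0.436). Kat2a, an acetyltransferase that acts on PGC-1alpha, was at 2.95 ± 0.302 FPKM in the controls and 4.099 ± 0.916 FPKM under TPN. Hnf4a, a factor of hepatocyte identity, was at 97.6 ± 12.7 FPKM in the controls and at 106 ± 32.01 FPKM under TPN. Cebpb was at 7.91 ± 3.24 FPKM against 9.98 ± 2.48 FPKM, and Klf15, a factor of amino acid use in fasting, at 17.2 ± 3.83 against 22.3 ± 10.3 FPKM. The list drawn for these factors also holds G6pc3, an enzyme related to G6pc, which is left out of the counts just given and was at 2.03 ± 0.194 FPKM against 2.4 ± 0.316 FPKM. Nr3c1 and Sirt1 were not analysed here.

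Of 8 targets of CREBH 2 were positive (3 after each rescaling) and 6 negative, and none passed limma's test (1 higher and 1 lower at an unadjusted p under 0.05). Apoa4, an apolipoprotein, was lower without overlap, at 312, 281 and 269 FPKM in the controls and 176, 152 and 189 FPKM in the TPN rats (limma adjusted p = 0.222). Hamp, which encodes the iron hormone hepcidin, was lower without overlap too, at 461, 711 and 414 FPKM and 333, 2.01 and 392 FPKM, with TPN 2 near 0. Fgf21, a hormone that liver makes in fasting, was higher without overlap, at 2.33, 3.78 and 2.03 FPKM and 33.6, 152 and 5.03 FPKM (limma adjusted p = 0.382). Cidec, a lipid droplet protein, was at 15.4 ± 5.205 FPKM and 20.9 ± 4.47 FPKM.

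All 11 tested amino acid response genes, a list that holds Trib3, were positive under each of the 4 scalings (median 1.44 as deposited). As deposited, 8 were higher without overlap, and by limma 8 were higher at an unadjusted p under 0.05. Over all tested features 8.02% were higher without overlap and 4.44% higher at that unadjusted p. Mthfd2, which encodes a folate enzyme of mitochondria, rose past the adjusted threshold (limma adjusted p = 0.0422), as did 0.0264% of all tested features. Mthfd2 was at 0.491, 0.985 and 0.483 FPKM in the controls and 8.704, 14 and 4.76 FPKM in the TPN rats. The call of Mthfd2 was lost when any of the 6 rats was left out and after median-ratio or quantile scaling, with log2 differences of 2.53 from all rats and 2.19 to 2.88 with a rat left out. Mthfd2, Trib3 and Atf4 were highest in TPN 2, Psph, Ddit3 and Shmt2 of the same list in TPN 3, and Pck2 in TPN 1. The part of ATF4 in the values of Pck2 was not tested.

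Of 9 tested genes of glycogen metabolism, which shares glucose 6-phosphate with the pathway, 3 were positive and none passed limma's test (1 in each direction at an unadjusted p under 0.05). Gys2, the liver glycogen synthase, was higher without overlap, at 15.3, 37.5 and 30.4 FPKM in the controls and 38.02, 41.6 and 44.1 FPKM in the TPN rats (limma adjusted p = 0.479). Ugp2, which makes UDP-glucose, was lower without overlap, at 136, 115 and 107 FPKM and 45.9, 104 and 79.7 FPKM (limma adjusted p = 0.433). Ppp1r3c, which targets a phosphatase to glycogen, was at 16.1 ± 6.702 FPKM and 24.7 ± 2.52 FPKM, and Pygl, the liver glycogen phosphorylase, at 84.1 ± 17.04 and 65.5 ± 16.3 FPKM.

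The pattern over the 6 rats most like that of Pck1, among 6370 features with a symbol and a mean of 5 FPKM or more, was that of AABR07034445.1. Likeness was measured as the root mean square difference of log2(FPKM + 1) centred on the mean of each gene, which was 0.085 for this feature. Gys2 (0.25) and C4bpa (0.27), a gene of complement control, came next, where Pck1 itself had a root mean square of 0.67 about its mean. Nearest to Sds were LOC100911313 (0.19), Nabp1 (0.20) and LOC100911660 (0.21), against 0.59 for Sds itself. These are descriptions of 6 values per gene.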

How the data were processed

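The 6 livers were grouped by sample title. RNA was taken with TRIzol, per the labels' protocols. The submitters' processing notes name Bowtie 0.12.2, Cufflinks and the build Rnor_6.0, without role or order. The authors deposited FPKM values, which hold no counts, so depth is unknown and no counting interval can be given. Strandedness and treatment of shared reads: not given in the sources used here. Per sample, FPKM added up to 509630 to 544670, and 11129 to 11424 features had at least 1 FPKM.

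The 11362 features averaging 1 FPKM or more were tested as log2(FPKM + 1) by limma 3.58.1 in R 4.3.3 (statmod 1.5.0; trend and robust settings; terms: group alone), with 2-sided p adjusted by Benjamini-Hochberg. The fit was tested on simulated data, with the noise drawn from the fit's own variance estimates. There it found 36 of 100 features changed by 1 log2 unit and 89 of 100 changed by 2. Of 132 features called, 7 were unchanged. A gene short of the threshold is thus not shown to be unchanged. Intervals are 95% intervals of the fit. Limma's p-values, SEs and intervals start from the spread between 3 rats a group. They draw it toward the spread of features of like level, so they are not each gene's own scatter alone. Ratios were tested by exact permutation. Of 214 entries in 22 lists 206 matched by symbol, 1 by an older symbol (RefSeq, GRCr8), and 7 were not matched. The members and the lists were chosen with earlier results of these data known. Named genes were the members, in each list those past the threshold or otherwise up to 4 with the smallest p, a set named whatever their values, and the 3 features most like Pck1 and Sds. Some named genes and 1 ratio are not reported here. The alternatives changed pseudocount, filter, scaling, moderation, sample weights, block, rows per symbol or rats. Figures used matplotlib 3.10.9.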

Additional observations from a re-analysis of the deposited data

How the results depend on the processing

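No member passed the threshold in any of 18 alternatives, with the smallest limma adjusted p among members running from 0.0539 (sample weights) to 0.863 (without control 1). Pck1, Pck2, G6pc and Ppargc1a stayed positive and Pc, Creb3l3 and Sds negative in each alternative that tested them. Ppargc1a was not tested at a minimum mean of 5 FPKM. Members higher without overlap numbered 3 to 4 with a rat left out, where the share of all features was 10.1% to 18.5%. Without control 2 and TPN 1 they numbered 3, beside 24.1% of all features. They numbered 2 after median-ratio scaling (10.2%), after quantile normalisation (11.2%) and at a minimum mean of 5 FPKM (8.35%). Members lower without overlap numbered 1 to 4 with a rat left out (9.96% to 19.8% of all features), 0 after quantile normalisation (9.36%) and 2 without control 2 and TPN 1 (23.2%), the rats highest in acute-phase genes within their groups.

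The log2 fold change of some named genes turned sign with a rat left out, each staying short of the threshold, with ranges of -0.00031 to 0.42 for Eno1, -0.10 to 0.20 for Fbp1, -0.11 to 0.15 for Gk, -1.72 to 0.0086 for Gpt, -1.09 to 0.024 for Gpt2, -0.13 to 0.30 for Hnf4a, -0.57 to 0.33 for Igfbp1, -0.29 to 0.24 for Irs2, -0.046 to 0.56 for Klf15, -0.65 to 0.21 for Pfkfb1, -0.089 to 0.22 for Pgam1, -0.96 to 0.017 for Pklr and -1.04 to 0.059 for Slc37a4. With sample weights it turned to -0.14 for Fbp1, 0.37 for Igfbp1, 0.15 for Irs2 and -0.071 for Pgam1, and without control 2 and TPN 1 to -0.086 for Fbp1 and 0.12 for Pfkfb1. It turned to 0.10 for Gk after quantile normalisation and to 0.0047 for Gk at a fixed total. The ratio of Pc to Pdha1 differed by 0.39 and that of Sds to Tat by -1.98 without control 2 and TPN 1.

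The 28 features past the threshold became 18 and 5 at pseudocounts of 0.1 and 0.01, 6 at a minimum mean of 5 FPKM, 8 without trend and robust settings, 299 with sample weights and 121 without control 2 and TPN 1. They became 0 without a filter, after median-ratio scaling and after quantile normalisation, where limma gave 1898, 1558 and 1591 features at an unadjusted p under 0.05. Leaving out a rat gave 0 to 46, with 0 without TPN 3 (1393 at an unadjusted p under 0.05), 1 without TPN 2, 3 without control 1, 6 without control 3 and 46 without control 2. The 1 pathway list gene past the threshold, Mthfd2, became 6 genes with sample weights, 0 to 1 with a rat left out (the 1 being Asns, without control 2), and 0 at a pseudocount of 0.01, without a filter, at a minimum mean of 5 FPKM, after median-ratio or quantile scaling, without trend and robust settings, and without control 2 and TPN 1. Causes of these shifts were not tested, except that the minimum of 5 FPKM removed Mthfd2 from the test.

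The titles number the rats of both groups 1 to 3. With the replicate number as a block 58 features and 4 pathway list genes passed, and no member did. Deviations of same-numbered rats from their group means correlated at -0.21, -0.14 and 0.32, and control 1 and 2 each correlated better with a TPN rat of another number, so the numbers were not taken as pairs. With depth unknown, the precision of genes as low as Ppargc1a cannot be stated.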
